A study of Ovis aries with 9 samples.

Results

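The transcripts described here are the 63 coding RefSeq transcripts (identifiers starting with NM_ or XM_, all of them XM_ here) of 7 sheep genes, DGCR2, ADGRE5, ATL3, TMCC1, PHLDB1, EIF3B and B4GALNT4, out of 76682 coding transcripts of 21284 genes in the deposited table. The 7 genes were chosen because 1 transcript of each had a low unadjusted p-value between puberty and prepuberty in these same libraries. The difference of that transcript between the 2 stages is therefore a description, with no test. The question was whether the other transcripts of the same gene moved against it, so that the sum over the gene stayed level, or whether the whole gene moved.

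Hypothalamus tissue came from 9 Dolang ewes, a sheep breed, with 3 animals at each of 3 stages and 1 library per animal. The prepuberty ewes were 120 to 121 days old, the puberty ewes were 130 to 131 days old and showed signs of estrus for the first time, and the postpuberty ewes were 150 to 151 days old and no longer accepted mounting. All were of the same breed and kept under the same conditions. Stage and age rise together, so they cannot be told apart. Poly(A)-selected RNA was sequenced as read pairs, and the values are FPKM, which are fragment counts scaled to the length of the transcript and to the mapped total of the library, estimated for each transcript with StringTie.

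Most mammalian genes produce several transcripts that differ in their start, their splicing or their end, and a cell can change the product of a gene by exchanging 1 transcript for another without changing the output of the gene. StringTie estimates the level of each transcript by dividing the reads of a gene among transcripts that share exons, so the values of the isoforms of 1 gene depend on each other. Reads that overlap several isoforms can be assigned to one isoform in one library and to another isoform in the next. The sum over the isoforms does not depend on that division in the same way, which is why it is given beside each of them.

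Within each gene, the transcript with the smallest unadjusted p-value between puberty and prepuberty is called the leading transcript, and the other transcript with the highest mean FPKM is called the main partner. Differences are on the scale of log2(FPKM + 1), from 1 limma fit of all 9 libraries. The unadjusted p-values of the 7 leading transcripts, which chose the genes, ran from 1.67e-05 for DGCR2 to 6.83e-04 for ATL3, at ranks 4 to 28 of the 47002 transcripts whose mean reached 0.5 FPKM in at least 1 stage. Of the 28 transcripts up to that rank, 16 had no coding RefSeq identifier, 3 were coding transcripts of genes with a LOC symbol and 9 were coding transcripts of named genes. Of these, 8 belonged to the 7 genes, the second of PHLDB1 included. The first coding transcript after rank 28 was XM_042240549.1 of AP5Z1, at rank 30 with a p of 8.38e-04. Adjusted over all 47002 transcripts, the p-values of the leading transcripts ran from 0.177 to 0.810, so none passed the call at an adjusted p below 0.05 and an absolute log2 difference of at least 1. That call was met by 0.00213% of the transcripts, 1 assembled transcript that is not among the 63.

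The library Puberty 2 stood apart from the others in the whole table. It had 19347227 mapped reads against 20624219 to 23966519 in the other 8 libraries, and 42441 transcripts above 0 against 67824 to 71787. Its FPKM values added to 599726, against 359588 to 398109 in the other 8 libraries. The FPKM values below are not scaled to equal totals. Of the 63 transcripts, 17 were above 0 in Puberty 2 and 37 to 48 in the other libraries, and 188 transcripts that reached 10 FPKM in every other library were listed at 0 in Puberty 2. Neuron markers were detected in every library, with a summed level of 374 FPKM in Puberty 2 and 520 to 1575 FPKM in the others. Markers of choroid plexus and ependyma summed to 16.2 to 363 FPKM in prepuberty, 271 to 7647 FPKM in puberty and 44.0 to 737 FPKM in postpuberty, most of it from TTR. Of the 6 endothelial and mural markers, 2 were highest of all 9 libraries in Puberty 2 (CLDN5, at 624 FPKM against 54.7 to 114 FPKM elsewhere, and VWF), 3 were lowest there (PECAM1, FLT1 and PDGFRB), and ACTA2 lay within the range of the others. The part of these differences in the results below was not tested. In bulk tissue, fewer cells of a type and less RNA per cell cannot be told apart. A value listed at 0 can also be a failed estimate, and many of the values below are given without Puberty 2 as well.

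**Figure D1:**
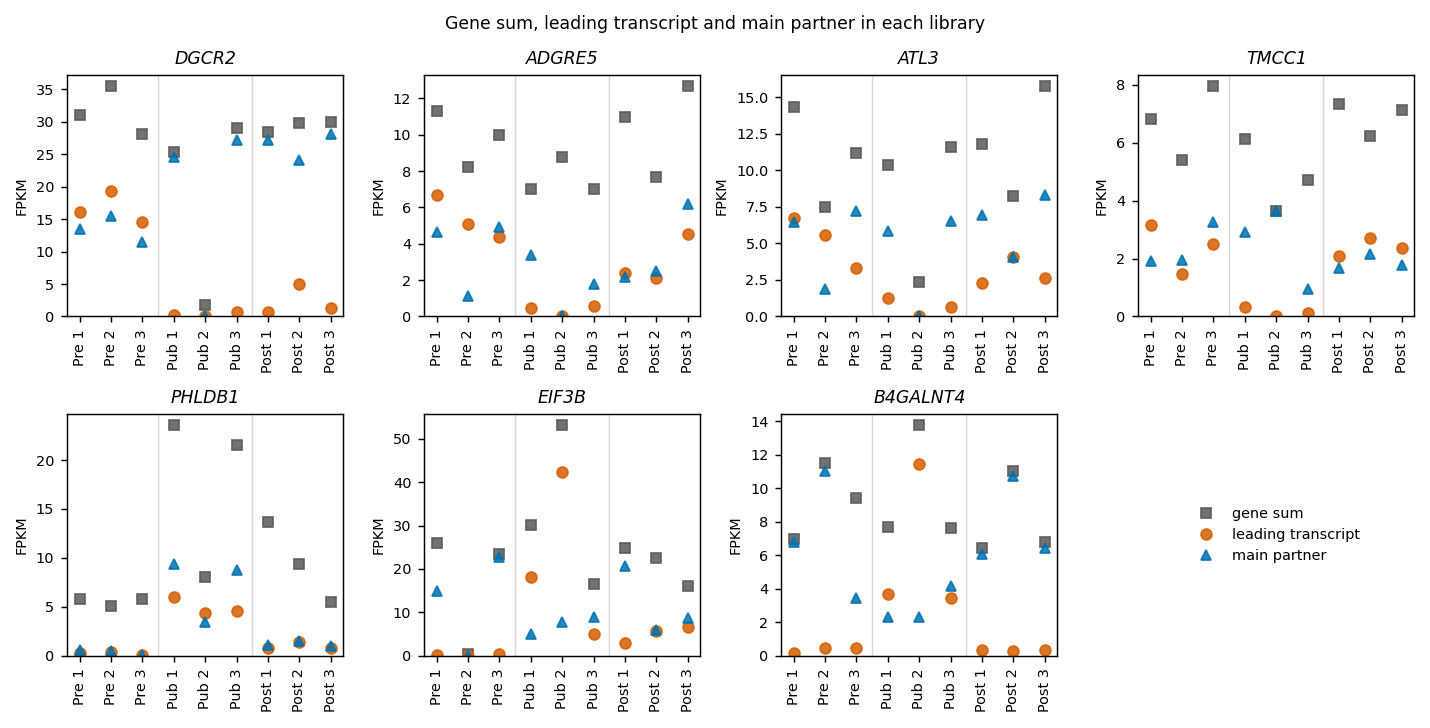
FPKM in each of the 9 libraries (Pre, prepuberty; Pub, puberty; Post, postpuberty) of the gene sum (squares), the leading transcript (circles) and the main partner (triangles) of the 7 genes. The leading transcripts, chosen for this difference, lie lower in puberty than in prepuberty in the upper 4 genes and higher in the lower 3. The gene sums of puberty and prepuberty overlap for 6 of the 7 genes, PHLDB1 being the exception. Such overlap was usual, as only 5.16% of all 14238 tested gene sums did not overlap between these stages.

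DGCR2 encodes a membrane protein that resembles adhesion receptors and lies in the region deleted in the human 22q11 deletion syndrome. In the sheep annotation (ARS-UI_Ramb_v3.0) it lies at chr17:72595332-72624585 and has 7 coding transcripts in the table, of which 3 passed the filter and 1 was listed at 0 in all 9 libraries. Its leading transcript XM_042234883.2 was at 16.2, 19.4 and 14.6 FPKM in Prepuberty 1 to 3, at 0.187, 0 and 0.714 FPKM in Puberty 1 to 3, and at 0.607, 5.03 and 1.25 FPKM in Postpuberty 1 to 3. The 3 prepuberty libraries were thus far above the other 6, and no postpuberty library came back into their range. Its main partner XM_027956911.3 was at 13.5, 15.4 and 11.5 FPKM in prepuberty, at 24.7, 0 and 27.3 FPKM in puberty, and at 27.2, 24.2 and 28.1 FPKM in postpuberty. Outside Puberty 2 the partner was higher in every puberty and postpuberty library than in any prepuberty library. The gene sum was 31.0, 35.5 and 28.2 FPKM in prepuberty, 25.4, 1.80 and 29.0 FPKM in puberty, and 28.4, 29.8 and 30.0 FPKM in postpuberty.

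Outside Puberty 2, the sum of DGCR2 thus stayed between 25.4 and 35.5 FPKM while its make-up differed. The leading transcript held 52.8% ± 1.52 of the sum in prepuberty (SD, n = 3), and the partner held 42.6% ± 1.45. In Puberty 1 and Puberty 3 the partner held 97.3% and 93.9%, and in postpuberty 95.8%, 81.2% and 93.5%. Without Puberty 2, the mean of the leading transcript was 16.3 FPKM lower in puberty than in prepuberty, the sum of the other transcripts was 11.9 FPKM higher, and the gene sum differed by -4.37 FPKM. With Puberty 2, these differences were -16.4, 3.57 and -12.8 FPKM, and in that library both main transcripts were listed at 0 and XM_060400890.1, at 1.52 FPKM, held 84.4% of a sum of 1.80 FPKM. The log2 difference of the leading transcript was -3.80 (SE 0.49) with that library and -3.62 without it.

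ADGRE5 encodes CD97, an adhesion G protein-coupled receptor best known from leukocytes, which binds CD55. It lies at chr5:9673201-9691138, and 4 of its 8 coding transcripts passed the filter, while 3 were listed at 0 throughout. Its leading transcript XM_027969495.2 was at 6.68, 5.08 and 4.38 FPKM in prepuberty, at 0.444, 0 and 0.597 FPKM in puberty, and at 2.40, 2.09 and 4.55 FPKM in postpuberty. Puberty lay below both other stages without overlap. The main partner XM_027969492.2 was at 4.64, 1.13 and 4.94 FPKM, then 3.38, 0 and 1.77 FPKM, and then 2.15, 2.51 and 6.19 FPKM, and its stages overlapped. A further transcript, XM_027969493.2, was at 0, 2.01 and 0.610 FPKM in prepuberty, 2.74, 0 and 4.64 FPKM in puberty, and 6.40, 2.91 and 1.95 FPKM in postpuberty. Puberty 2 held none of these 3 transcripts. All of its ADGRE5 signal, 8.76 FPKM, was assigned to XM_042249803.1, which had a value of 0 everywhere else.

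The gene sum of ADGRE5 was 11.3, 8.23 and 10.0 FPKM in prepuberty, 7.01, 8.76 and 6.999 FPKM in puberty, and 10.96, 7.68 and 12.7 FPKM in postpuberty. Here Puberty 2 decided whether the stages overlapped, as its sum lay within the prepuberty range. That library had the highest FPKM total, and whether its sum stays in this range at equal totals was not tested. Puberty 1 and Puberty 3 lay below all 6 libraries of the other stages. Against prepuberty, the background without Puberty 2 was 4.58% of gene sums lower without overlap. From prepuberty to puberty, the mean of the leading transcript differed by -5.04 FPKM, that of the other transcripts together by 2.77 FPKM and that of the sum by -2.26 FPKM. Without Puberty 2 these differences were -4.86, 2.02 and -2.85 FPKM. The leading transcript held 54.9% ± 9.65 of the sum in prepuberty (SD, n = 3), 4.95% ± 4.43 in puberty and 28.3% ± 7.03 in postpuberty. Markers of microglia and leukocytes, cells that carry CD97, overlapped between stages. They summed to 113 to 373 FPKM in prepuberty, 113 to 226 FPKM in puberty and 78.9 to 359 FPKM in postpuberty. The highest of these values, in Prepuberty 1 and Postpuberty 3, lay in the libraries with the highest ADGRE5 sums. The remaining libraries were not in the same order for the markers and for ADGRE5. The part of these cells in the ADGRE5 values was not tested.

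ATL3 encodes atlastin 3, a GTPase that fuses tubules of the endoplasmic reticulum. It lies at chr21:38451110-38494926, and 4 of its 10 coding transcripts passed the filter, while 3 were listed at 0 throughout. Its leading transcript XM_004019634.4 was at 6.76, 5.56 and 3.28 FPKM in prepuberty, at 1.24, 0 and 0.652 FPKM in puberty, and at 2.30, 4.04 and 2.60 FPKM in postpuberty. Puberty again lay below both other stages without overlap. The main partner XM_004019633.4 was at 6.45, 1.86 and 7.23 FPKM in prepuberty, 5.81, 0 and 6.51 FPKM in puberty, and 6.96, 4.07 and 8.30 FPKM in postpuberty. Apart from Puberty 2, its low values were in Prepuberty 2 and Postpuberty 2, so it did not follow the stages. XM_060404070.1 was at 0.930, 0 and 0.437 FPKM in prepuberty, at 2.65, 0 and 3.65 FPKM in puberty and at 2.06, 0.0278 and 3.99 FPKM in postpuberty.

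The gene sum of ATL3 was 14.3, 7.51 and 11.2 FPKM in prepuberty, 10.4, 2.38 and 11.6 FPKM in puberty, and 11.8, 8.27 and 15.8 FPKM in postpuberty. The 3 stages overlapped, and the low value of puberty was that of Puberty 2, where XM_060404067.1 held the whole sum. Without Puberty 2 the mean sum differed by -0.0188 FPKM between puberty and prepuberty, as the leading transcript differed by -4.25 FPKM and the other transcripts together were 4.23 FPKM higher. Among the 7 genes, this was the difference of sums closest to 0. The leading transcript held 47.3%, 74.1% and 29.3% of the sum in the prepuberty libraries. It held 12.01%, 0% and 5.62% in those of puberty and 19.5%, 48.9% and 16.5% in those of postpuberty, so its share varied widely within the stages.

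TMCC1 encodes a membrane protein of the endoplasmic reticulum that acts at its contacts with endosomes. It lies at chr19:55895910-56053612, and 4 of its 14 coding transcripts passed the filter. Its leading transcript XM_027957777.2 was at 3.16, 1.46 and 2.502 FPKM in prepuberty, at 0.335, 0 and 0.133 FPKM in puberty, and at 2.10, 2.72 and 2.37 FPKM in postpuberty. The postpuberty libraries lay within the range of prepuberty, and all 3 puberty libraries lay below both. The main partner XM_027957785.3 was at 1.93, 1.95 and 3.26 FPKM, then 2.91, 3.65 and 0.941 FPKM, and then 1.67, 2.15 and 1.77 FPKM, and XM_027957786.2 was at 1.16, 0.704 and 1.75 FPKM, then 2.57, 0 and 1.49 FPKM, and then 1.28, 1.02 and 0.687 FPKM. The stages of the main partner overlapped. For XM_027957786.2, Puberty 1 and Puberty 3 were above all postpuberty libraries and overlapped with prepuberty, while Puberty 2 was at 0. Its share of the sum was 41.7% in Puberty 1 and 31.7% in Puberty 3, against at most 21.97% in the libraries of the other stages.

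The gene sum of TMCC1 was 6.84, 5.40 and 7.96 FPKM in prepuberty, 6.15, 3.65 and 4.72 FPKM in puberty, and 7.35, 6.24 and 7.14 FPKM in postpuberty. Puberty overlapped with prepuberty through Puberty 1, and lay below postpuberty by a narrow margin, 6.15 against 6.24 FPKM. The other transcripts together differed between puberty and prepuberty by 0.323 FPKM with Puberty 2 and by 0.838 FPKM without it, against -2.22 and -2.14 FPKM for the leading transcript. The counterpart in the other isoforms was thus small beside the difference of the leading one. The 10 TMCC1 transcripts that did not pass the filter together held up to 28.4% of the sum, in Puberty 3, so the make-up of this gene rests on many low values.

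**Figure D2:**
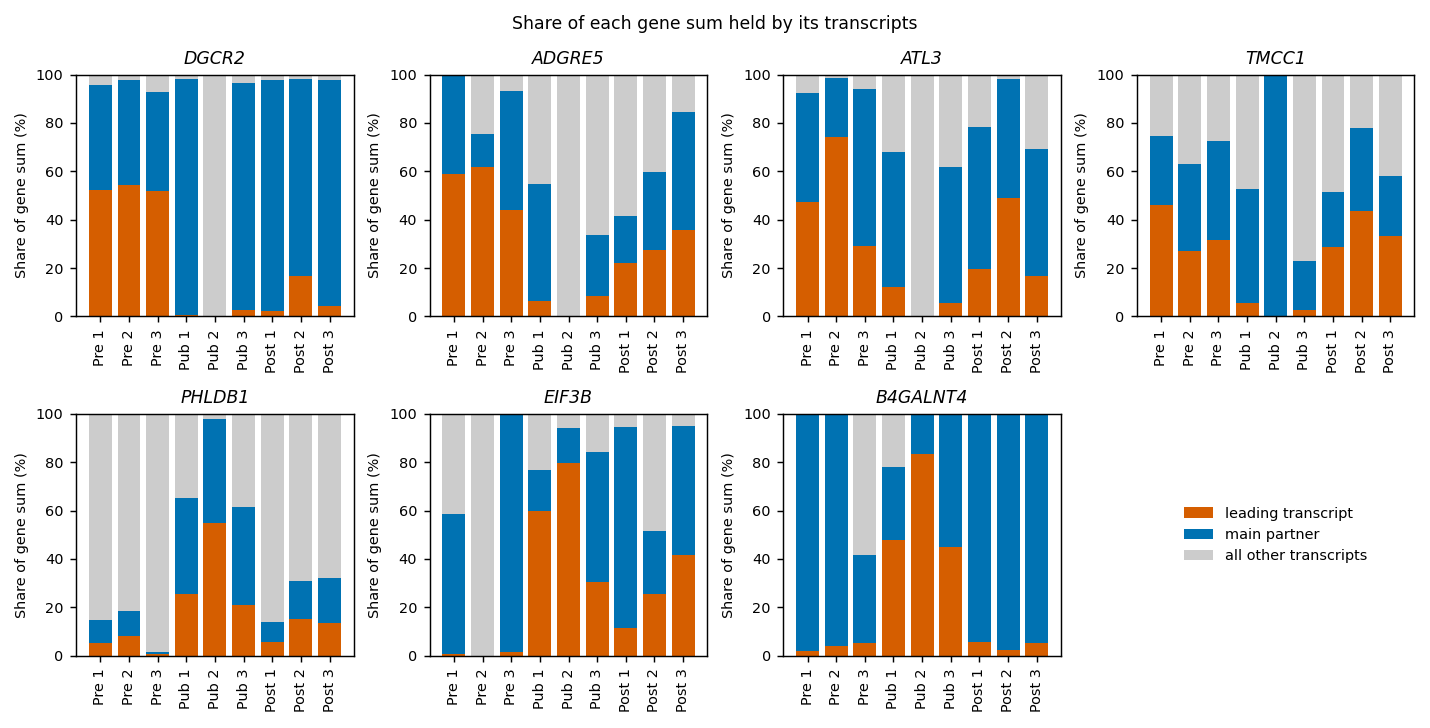
Share of each gene sum, in percent, held by the leading transcript (orange), the main partner (blue) and all other coding transcripts of the gene (grey) in each library. In DGCR2 the orange share is 51.7% to 54.5% in the 3 prepuberty libraries and at most 16.9% in the others, and in Puberty 2 a single transcript holds the whole bar of ADGRE5, ATL3 and TMCC1.

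PHLDB1 encodes LL5α, a protein with a pleckstrin homology domain that helps to anchor microtubules at the cell cortex. It lies at chr15:28996928-29045789, and 10 of its 17 coding transcripts passed the filter. Its leading transcript XM_027979269.2 was at 0.306, 0.408 and 0.0312 FPKM in prepuberty, at 5.97, 4.39 and 4.53 FPKM in puberty, and at 0.786, 1.42 and 0.755 FPKM in postpuberty. Puberty was above both other stages in all 3 libraries, Puberty 2 included. The main partner XM_027979265.2 was at 0.551, 0.523 and 0.0459 FPKM, then 9.38, 3.45 and 8.72 FPKM, and then 1.10, 1.49 and 1.01 FPKM. It had the same order of stages without overlap, and was itself at rank 9 of the p-values that chose the genes. The log2 differences between puberty and prepuberty were 2.26 (SE 0.30) for the leading transcript and 2.5 (SE 0.39) for the partner.

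The gene sum of PHLDB1 was 5.79, 5.09 and 5.78 FPKM in prepuberty, 23.5, 8.002 and 21.6 FPKM in puberty, and 13.6, 9.42 and 5.52 FPKM in postpuberty. Alone among the 7 genes over the 9 libraries, its sum did not overlap between puberty and prepuberty, puberty being higher. Of the 14238 tested gene sums, 2.32% had a separation in that direction, and 7.07% without Puberty 2. The puberty library nearest to prepuberty was Puberty 2, whose FPKM total was the highest of the 9 libraries. Whether the sums still separate over the 9 libraries at equal totals was not tested. The log2 difference of the sum was 1.38 (SE 0.43) with Puberty 2 and 1.85 without it. This sum holds the 2 transcripts whose difference chose the gene, so its separation is part of that choice and a description, with no test. In Puberty 2 the 2 named transcripts held 98.0% of a sum of 8.002 FPKM, and in Puberty 1 and Puberty 3 they held 65.2% and 61.5%. In prepuberty they held 14.8%, 18.3% and 1.33%, and in postpuberty 13.8%, 30.8% and 32.1%. The other 15 transcripts together were at 4.93, 4.16 and 5.70 FPKM in prepuberty, at 8.19, 0.161 and 8.30 FPKM in puberty, and at 11.7, 6.52 and 3.75 FPKM in postpuberty. In Puberty 1 and Puberty 3 they were above all prepuberty libraries and below Postpuberty 1, and in Puberty 2 they were the lowest of all 9 libraries. Of the 8 other transcripts that passed the filter, 5 were higher in both Puberty 1 and Puberty 3 than in all prepuberty libraries, at a background of 8.7% of the coding transcripts without Puberty 2, and 6 were listed at 0 in Puberty 2.

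EIF3B encodes a core subunit of eukaryotic initiation factor 3, which brings the small ribosomal subunit to the messenger RNA. It lies at chr24:41260236-41278945 and all 4 of its coding transcripts passed the filter. Its leading transcript XM_042240603.2 was at 0.161, 0 and 0.3202 FPKM in prepuberty, at 18.1, 42.3 and 5.05 FPKM in puberty, and at 2.85, 5.77 and 6.66 FPKM in postpuberty. Prepuberty was below both other stages, and Puberty 3 lay among the postpuberty libraries. The main partner XM_027961930.2 was at 15.02, 0 and 22.9 FPKM in prepuberty, 5.07, 7.76 and 8.92 FPKM in puberty, and 20.7, 5.93 and 8.62 FPKM in postpuberty. XM_060406087.1 was at 10.7, 0 and 0.0419 FPKM, then 6.14, 3.03 and 2.33 FPKM, and then 1.27, 8.02 and 0.641 FPKM. In Prepuberty 2, a library that did not stand apart in the number of its transcripts, 3 of the 4 transcripts were listed at 0 and the fourth, XM_060406088.1, was at 0.327 FPKM.

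The gene sum of EIF3B was 25.9, 0.327 and 23.3 FPKM in prepuberty, 30.2, 53.1 and 16.6 FPKM in puberty, and 24.9, 22.6 and 16.1 FPKM in postpuberty. The stages overlapped, and Prepuberty 2 and Puberty 2 set the difference of the means between them. The log2 difference of the sum was 1.70 (SE 1.02) over all libraries, 1.29 without Puberty 2 and 0.27 without Prepuberty 2. Over all 9 libraries, the mean of the leading transcript differed by 21.7 FPKM between puberty and prepuberty, the other transcripts together by -4.90 FPKM and the sum by 16.8 FPKM. Without Puberty 2 these were 11.4, -4.56 and 6.85 FPKM. With Prepuberty 2 left out as well, a setting chosen after seeing the data, they were 11.3, -12.6 and -1.25 FPKM, so the difference of the other transcripts depended on Prepuberty 2. The leading transcript held 0.619% and 1.37% of the sum in Prepuberty 1 and Prepuberty 3. Its share was 59.9%, 79.7% and 30.5% in Puberty 1 to 3. It was 11.5%, 25.5% and 41.4% in Postpuberty 1 to 3.

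B4GALNT4 encodes a glycosyltransferase that adds N-acetylgalactosamine to form LacdiNAc on glycans. It lies at chr21:47275862-47287785, the shortest of the 7 loci, and all 3 of its coding transcripts passed the filter. Its leading transcript XM_060404387.1 was at 0.143, 0.462 and 0.487 FPKM in prepuberty, at 3.69, 11.5 and 3.44 FPKM in puberty, and at 0.360, 0.273 and 0.364 FPKM in postpuberty. It was thus low in both other stages and higher in each puberty library. The main partner XM_027959935.2 was at 6.81, 11.02 and 3.44 FPKM in prepuberty, at 2.33, 2.29 and 4.19 FPKM in puberty, and at 6.09, 10.8 and 6.45 FPKM in postpuberty. Puberty was below postpuberty without overlap and overlapped with prepuberty through Prepuberty 3, the library in which XM_060404386.1, at 5.48 FPKM, was the highest transcript.

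The gene sum of B4GALNT4 was 6.95, 11.5 and 9.41 FPKM in prepuberty, 7.70, 13.8 and 7.63 FPKM in puberty, and 6.45, 11.03 and 6.82 FPKM in postpuberty. The 3 stages overlapped, and the libraries numbered 2 were the highest in puberty and postpuberty as well as in prepuberty. The leading transcript held 3.75% ± 1.58 of the sum in prepuberty (SD, n = 3), 58.7% ± 21.3 in puberty and 4.46% ± 1.72 in postpuberty. Between prepuberty and puberty the mean of the leading transcript differed by 5.83 FPKM, the other transcripts together by -5.42 FPKM and the sum by 0.411 FPKM. Without Puberty 2 these were 3.20, -4.82 and -1.62 FPKM. XM_027959935.2 held 95.5% ± 1.72 of the sum in postpuberty (SD, n = 3), near the 97.9% and 95.9% of Prepuberty 1 and Prepuberty 2. Prepuberty 3 differed from all of these, with 36.6% for that transcript and 58.3% for XM_060404386.1, which was at 0 in all 3 postpuberty libraries.

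**Figure D3:**
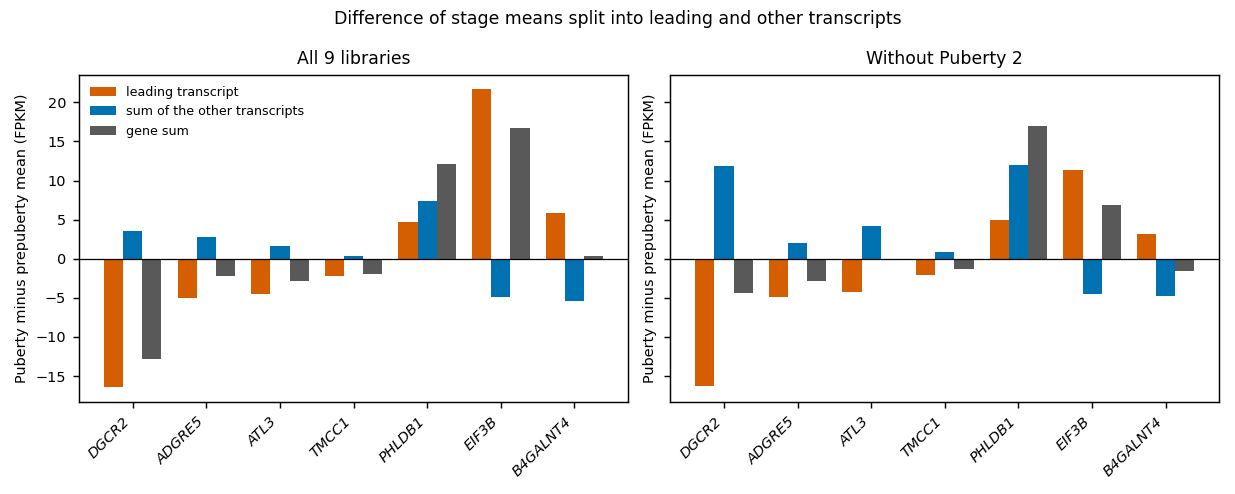
Difference of the puberty and prepuberty means in FPKM for the leading transcript (orange), the sum of the other transcripts (blue) and the gene sum (grey) of each gene, with all 9 libraries (left) and without Puberty 2 (right). Orange and blue bars point in opposite directions for 6 genes and in the same direction for PHLDB1, and without Puberty 2 the gene sum of ATL3 differs by -0.0188 FPKM.

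Set side by side, the leading and the other transcripts of a gene differed in opposite directions between puberty and prepuberty for 6 of the 7 genes, and in the same direction for PHLDB1. Without Puberty 2, the leading and the other transcripts differed by -4.25 and 4.23 FPKM for ATL3 and by 3.20 and -4.82 FPKM for B4GALNT4. The difference of the other transcripts was the smaller one for DGCR2, at 11.9 against -16.3 FPKM, for ADGRE5, at 2.02 against -4.86 FPKM, for TMCC1, at 0.838 against -2.14 FPKM, and for EIF3B, at -4.56 against 11.4 FPKM. For EIF3B that order rested on Prepuberty 2. With Prepuberty 2 left out as well as Puberty 2, the values were -12.6 against 11.3 FPKM. These directions are a description: the leading transcript was chosen for its difference, and the estimates of isoforms that share exons are not independent. Shares of 1 gene also add to 100%, so that a lower share of 1 transcript has to appear in the others. Of the 21554 shares that could be compared, 8.69% separated puberty from prepuberty in either direction, and 17.8% without Puberty 2.

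The transcript with the highest FPKM of its gene differed between libraries in all 7 genes. Without Puberty 2, DGCR2 and ATL3 each had 2 different highest transcripts over the 8 libraries, PHLDB1, B4GALNT4 and ADGRE5 had 3, and EIF3B and TMCC1 had 4. A change of the highest transcript was common in the table as a whole. Of 8743 genes with at least 2 coding transcripts and a sum above 0 in every library, 53.1% kept the same highest transcript over the 8 libraries and 35.3% over all 9. DGCR2 was the only one of the 7 genes in which the highest transcript was the same within each of prepuberty (XM_042234883.2) and postpuberty (XM_027956911.3) and differed between them.

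**Figure D4:**
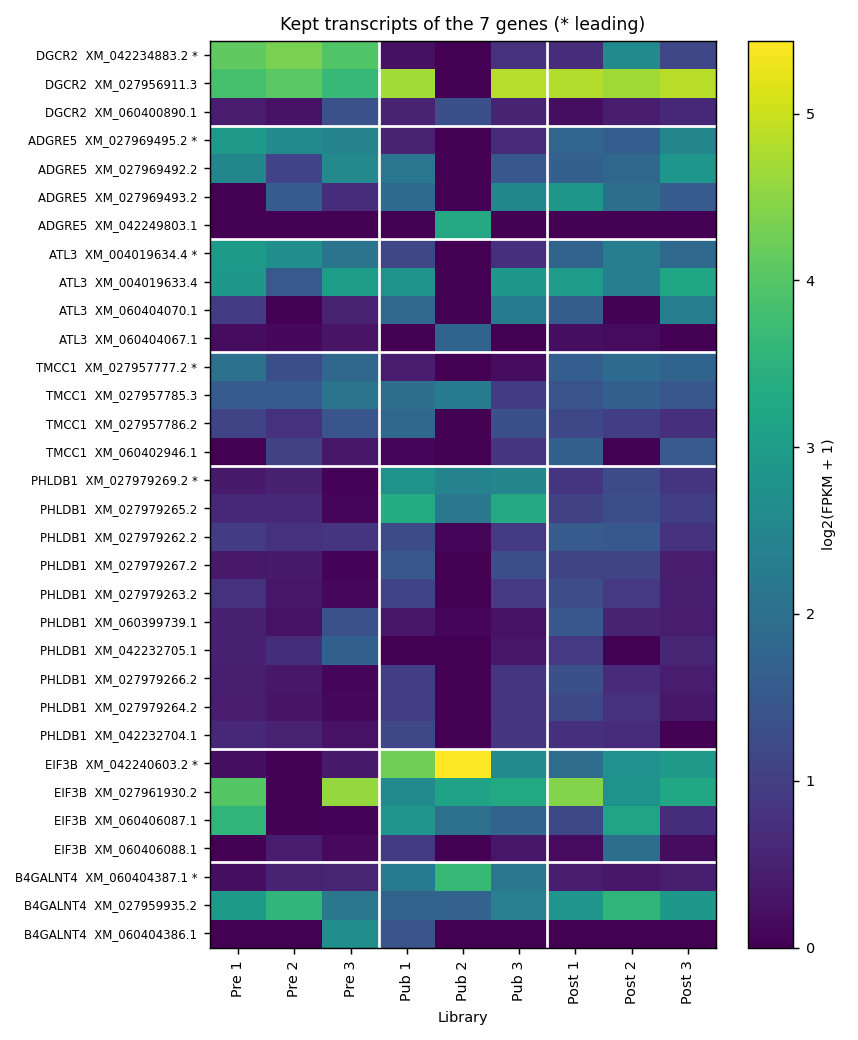
Level of the 32 transcripts that passed the filter, as log2(FPKM + 1), in each of the 9 libraries, grouped by gene with the leading transcript first (marked by a star). Puberty 2 is dark for most transcripts and bright for a few, among them ADGRE5 XM_042249803.1, which is at 0 everywhere else.

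Postpuberty was not used to choose the genes, but its comparisons share the puberty or the prepuberty libraries with the comparison that was. Against puberty, the leading transcripts did not overlap for 5 of the 7 genes. ADGRE5, TMCC1 and ATL3 were higher in postpuberty, at a background of 6.26% of the coding transcripts. PHLDB1 and B4GALNT4 were lower, at a background of 2.22%, and the stages overlapped for DGCR2 and EIF3B. Without Puberty 2 there were likewise 3 higher and 2 lower, but at backgrounds of 8.73% and 7.69%. The log2 differences were 1.55 (SE 0.36) for ADGRE5, 1.56 (SE 0.31) for TMCC1 and 1.34 (SE 0.40) for ATL3. They were -1.59 (SE 0.30) for PHLDB1, -2.26 (SE 0.41) for B4GALNT4, 1.14 (SE 0.49) for DGCR2 and -1.55 (SE 0.63) for EIF3B. By limma with Benjamini-Hochberg adjustment over all transcripts, the adjusted p was 0.770 for each of the 7, with unadjusted p-values of 2.82e-04 to 0.0416. The puberty libraries helped to choose these transcripts, so a difference back from puberty is built into the choice. These p-values and the separations above are therefore a description, with no test. No transcript of the table was called by limma in this comparison, with 1625 transcripts (3.46%) at an unadjusted p below 0.05. Without Puberty 2, the difference of DGCR2 was 0.97 and that of EIF3B -0.88, both within 2 SE of 0.

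Against prepuberty, the leading transcript of DGCR2 did not overlap and was lower in postpuberty, at a background of 2.63%, and those of EIF3B and PHLDB1 did not overlap and were higher, at a background of 4.23%. The log2 difference was -2.66 (SE 0.49) for DGCR2, 2.34 (SE 0.63) for EIF3B and 0.67 (SE 0.30) for PHLDB1. For the remaining genes it was -0.70 (SE 0.36) for ADGRE5, -0.62 (SE 0.40) for ATL3, 0.04 (SE 0.31) for TMCC1 and -0.02 (SE 0.41) for B4GALNT4. The limma adjusted p was 1 for each of the 7, and unadjusted it was smallest for DGCR2 at 2.99e-04 and next for EIF3B at 0.00422. The prepuberty libraries helped to choose these transcripts, so these p-values and separations are also a description, with no test. The 95% interval for TMCC1 reached from -0.65 to 0.73. For B4GALNT4 the leading transcript was below 0.5 FPKM in all 6 libraries, where the log2(FPKM + 1) scale leaves little room for a difference.

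Among the gene sums over all 9 libraries, that of TMCC1 was the 1 of the 7 that separated postpuberty from puberty. It was higher in postpuberty, at a background of 5.25%, with a log2 difference of 0.46 (SE 0.26, limma adjusted p 0.780), and of 0.30 without Puberty 2. Without that library, the sums of TMCC1 and ADGRE5 were higher in postpuberty without overlap, at a background of 7.93%, and that of PHLDB1 was lower, at 6.08%, each with a limma adjusted p of 1. Against prepuberty, the sums of all 7 genes overlapped with postpuberty, with limma adjusted p-values of 1. Of all tested gene sums, only 4.57% separated these 2 stages, so such overlap was usual in the table. For DGCR2 that difference was -0.09, with a 95% interval of -1.82 to 1.63 over 9 libraries and of -0.41 to 0.22 without Puberty 2. No gene sum of the table was called in any of the 3 comparisons by limma, with 259, 305 and 116 of 14238 at an unadjusted p below 0.05 for puberty against prepuberty, postpuberty against puberty and postpuberty against prepuberty.

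The shares of the leading transcripts in postpuberty are given as a description, since an exact permutation test of 3 libraries against 3 cannot give a p below 0.1, and since the genes were chosen on the puberty and prepuberty values. The mean share of B4GALNT4 differed by -54.3 percentage points from puberty to postpuberty, and that of TMCC1 by 32.4 percentage points. From prepuberty to postpuberty the mean share differed by -45.1 percentage points for DGCR2, by -26.5 for ADGRE5 and by 25.5 for EIF3B.

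**Figure D5:**
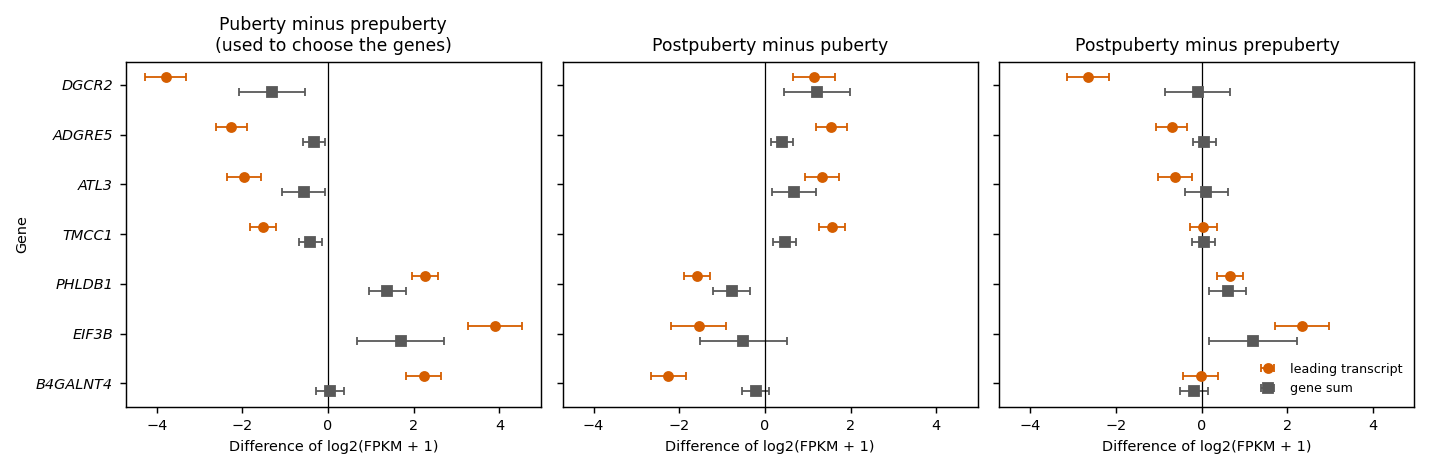
Differences of log2(FPKM + 1) between stages for the leading transcript (circles) and the gene sum (squares) of each gene, with bars of 1 standard error from the limma fits. The leading transcripts lie on opposite sides of 0 in the first and second comparison, which share the puberty libraries, and in the third DGCR2 remains at -2.66 and EIF3B at 2.34 while TMCC1 and B4GALNT4 lie near 0.

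The 49 transcripts that were neither leading nor main partner were mostly low. Of the 63 transcripts 32 passed the filter, among them 18 of these 49. Between puberty and prepuberty, 1 of the 18 separated in all 9 libraries, PHLDB1 XM_042232705.1, which was at 0.417, 0.644 and 2.203 FPKM in prepuberty and at 0, 0 and 0.263 FPKM in puberty. The background of coding transcripts lower in puberty without overlap was 4.66%. Without Puberty 2, 7 of the 18 were higher without overlap, at a background of 8.7%, and 2 were lower, at a background of 6.55%. Transcripts that failed the filter held at most 6.87% of the sum of ATL3, 6.28% of ADGRE5 and 3.18% of DGCR2 outside Puberty 2, but up to 21.4% of PHLDB1.

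The genes that act with the 7 were examined as gene sums, in lists drawn up with earlier results of these data known. No gene of any list was called in any comparison. The median log2 difference over all tested genes was -0.14 between puberty and prepuberty, 0.19 between postpuberty and puberty and 0.05 between postpuberty and prepuberty. Without Puberty 2, left out here after the data had been seen, the first 2 were 0.02 and 0.03. Beside EIF3B, the 11 measured other subunits of initiation factor 3 had medians of 0.12, -0.03 and 0.12 in these 3 comparisons (0.03 and 0.07 for the first 2 without Puberty 2), and 0 of 11 reached an unadjusted p of 0.05, against a background of 1.82%, 2.14% and 0.815% of all gene sums. Of 15 other initiation factors, the helicase gene EIF4A1 had the smallest p between puberty and prepuberty. Its log2 difference was -1.85 (SE 0.46, limma p 0.00305, adjusted p 0.838), and -1.50 without Puberty 2 (adjusted p 1). EIF4A1 was also lower in postpuberty than in prepuberty, at -1.24 (SE 0.46, limma p 0.0247). The 15 had medians of -0.26, 0.30 and 0.04, and of -0.06 and 0.06 in the first 2 comparisons without Puberty 2.

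Around ATL3 and TMCC1, 17 measured genes that shape the endoplasmic reticulum had medians of -0.28, 0.33 and 0.05, and 0 of 17 reached an unadjusted p of 0.05. Without Puberty 2 the first 2 medians changed sign, to 0.09 and -0.08. Around ADGRE5, 13 other adhesion G protein-coupled receptors had medians of -0.13, 0.38 and 0.01, the first 2 being -0.01 and 0.08 without Puberty 2. The latrophilin gene ADGRL3 was at 0.87 (SE 0.35, limma p 0.0361, adjusted p 0.780) between postpuberty and puberty, and at 0.68 (limma p 0.120) without Puberty 2. The 6 tested ligands and partners of CD97 had medians of -0.26, 0.35 and 0.18, the first 2 being 0.01 and 0.14 without Puberty 2, and 0 reached an unadjusted p of 0.05. Around PHLDB1, 12 genes of the cortical microtubule complex had medians of -0.05, 0.20 and 0.06, the first 2 being 0.09 and -0.04 without Puberty 2. CLASP1, whose product stabilizes microtubule ends, was at 0.99 (SE 0.38, limma p 0.0291, adjusted p 0.838) between puberty and prepuberty, and at 0.56 (limma p 0.0962) without Puberty 2. Its sums in puberty were 0.0331, 2.70 and 1.18 FPKM, so that Puberty 1 lay near the prepuberty libraries, which were at 0.0311 FPKM or below. Around B4GALNT4, 9 glycosyltransferases had medians of -0.13, 0.25 and 0.04, with 0 at an unadjusted p below 0.05 over 9 libraries, and the first 2 changed sign, to 0.04 and -0.10, without Puberty 2.

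Around DGCR2, 16 tested genes of the 22q11 region had medians of 0.25, -0.23 and -0.03 in the same order of comparisons. The first 2 changed sign, to -0.12 and 0.11, without Puberty 2. Between puberty and prepuberty 11 of the 16 were above 0, but 5 of the 16 without Puberty 2, and 0 reached an unadjusted p of 0.05 either way. CRKL, which encodes an adaptor protein of that region, was at -2.46 (SE 0.64, limma p 0.00369, adjusted p 0.780) between postpuberty and puberty, at -2.62 (adjusted p 1) for the same comparison without Puberty 2, and at -2.32 (adjusted p 1) between postpuberty and prepuberty.

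Transcripts of other genes with the most similar pattern were sought among 27674 coding transcripts by Pearson correlation of log2(FPKM + 1) over the 9 libraries. The leading transcript of TMCC1 was most like XM_060408515.1 of EYA3 (r = 0.983), and that of B4GALNT4 most like XM_042234202.1 of AIFM3 (r = 0.978). For ADGRE5 it was XM_042247144.1 of GNPTAB (r = 0.974), for DGCR2 XM_027956809.2 of RNF185 (r = 0.955) and for ATL3 XM_060405514.1 of ACAA2 (r = 0.954). EIF3B was most like XM_042256150.2 of TANC2 (r = 0.939) and PHLDB1 most like XM_042249594.2 of SUGP2 (r = 0.930). Without Puberty 2 the coefficients for the same pairs ran from 0.919 to 0.984. The points share their libraries and the best of many pairs was taken, so these values are a description.

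Several of the loci overlap other annotated genes, and whether reads were assigned by strand is not given in the sources used here. TSSK1B lies inside DGCR2 and was at 0.109 to 0.791 FPKM, low beside the 25.4 to 35.5 FPKM of the DGCR2 sum outside Puberty 2. DDX39A overlaps ADGRE5 by 246 bases and was at 1.74 to 6.15 FPKM, with its highest value in Puberty 2. PHLDB1 holds 2 lncRNA genes, LOC132657862 at 0.217 to 1.22 FPKM and LOC114118397 at 0.466 to 3.89 FPKM, and overlaps TREH by 20 bases. TMCC1 holds the small nuclear RNA gene LOC114109480, which was at 0 to 0.158 FPKM. Assembled transcripts without a RefSeq identifier, 25434 in the table together with unassigned ones, were not tied to genes here and are not part of the sums.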

How the data were processed

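The authors trimmed the reads with Trimmomatic (0.32 in the submitters' processing notes), mapped them with HISAT2 (sheep assembly ARS-UI_Ramb_v3.0), and used StringTie to assemble, merge and quantify transcripts. The deposited table is described as raw counts, but its values are FPKM for each transcript and not whole numbers, so limma 3.58.1 in R 4.3.3 (variance trend) was run on log2(FPKM + 1) in place of a count test. Transcripts, or sums over the coding transcripts of a gene, were kept where the mean reached 0.5 FPKM in at least 1 stage. Calls needed a Benjamini-Hochberg adjusted p below 0.05 over everything kept and an absolute log2 difference of at least 1. Gene symbols and positions came from RefSeq, which matched 76682 of 76684 coding identifiers. Libraries were scaled no further. Mapped reads per library are those the authors list. The number of reads behind each FPKM value is unknown, so no counting interval is given. The limma step was also run on simulated data. No outcome of that run is given here, so it is no evidence on the error rates in these libraries. Every transcript of the 7 genes was in scope, and a leading transcript and main partner were named by fixed rules. The members, rules and gene lists were chosen with earlier results of these data known. Alternatives were another pseudocount, no filter, other scalings, a replicate block and leaving out each library. Each library is 1 ewe, so p-values measure the spread between ewes.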

Additional observations from a re-analysis of the deposited data

How the results depend on the processing

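The leading transcripts of the 7 genes were chosen for a low unadjusted p between puberty and prepuberty, so their direction in that comparison is no sign of stability. Among 112 alternative values of the gene sums for puberty against prepuberty alone, 3 changed sign, for 2 genes (B4GALNT4 and ATL3). With a pseudocount of 0.1, the differences of all 7 leading transcripts in that comparison were more than 1.5 times as large, for example -3.45 for TMCC1 and -5.87 for DGCR2. That pseudocount also moved leading transcripts in the other comparisons. Between postpuberty and prepuberty it gave 1.80 for PHLDB1 and 4.46 for EIF3B, and between postpuberty and puberty 2.57 for DGCR2.

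Leaving out 1 library at a time gave 1 to 5 called transcripts between puberty and prepuberty (1 with all libraries), 0 to 1 between postpuberty and puberty (0 with all) and 1 to 5 between postpuberty and prepuberty (1 with all). A pseudocount of 0.1 gave 0 in each. Called gene sums stayed at 0 under every setting, with limma. For puberty against prepuberty, postpuberty against puberty and postpuberty against prepuberty in turn, leaving out 1 library gave 193 to 728, 197 to 836 and 94 to 265 gene sums, and 1165 to 3168, 1214 to 3426 and 752 to 1511 transcripts, at an unadjusted p below 0.05.

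Some differences between postpuberty and prepuberty changed direction, and none passed the test under any setting. Leaving out 1 library gave B4GALNT4's leading transcript -0.15 to 0.0424, TMCC1's leading transcript -0.17 to 0.21, and the sums of ADGRE5 -0.0809 to 0.25, TMCC1 -0.086 to 0.16, ATL3 -0.12 to 0.33 and EIF3B -0.23 to 1.94. Upper-quartile scaling and quantile normalization gave -0.00982 and -0.00623 for the leading transcript of TMCC1 and -0.00253 and -0.026 for its sum. Between postpuberty and puberty, the sum of B4GALNT4 ranged from -0.44 to 0.0362. Upper-quartile scaling moved the median of all gene sums from -0.14 to -0.08 between puberty and prepuberty and from 0.19 to 0.10 between postpuberty and puberty, and quantile normalization moved both to near 0 (0.01 and -0.01).

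The replicate numbers do not pair the ewes. Deviations of same-numbered libraries correlated at -0.13 to 0.23, with 2 of 9 pairs above 0.1. With a replicate block, limma called 1, 0 and 1 transcripts and 0 gene sums, as without it. The 7 genes have no noncoding RefSeq transcripts, so counting those in the sums changed nothing. With 3 libraries a stage and Puberty 2 apart from the others, small differences were not detectable.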
